A study of Mus musculus with 288 samples.

Results

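Daily differences in gene expression were examined in the lungs of mice after exposure to intermittent hypoxia (IH), a repeated fall and recovery of inhaled oxygen that models sleep apnea. All mice were wild-type C57BL/6J males, 8 weeks old. The exposed mice had received cycles between 21% and 8% oxygen during their resting phase for 7 days, while the normoxia mice stayed at 21%. Every mouse was then kept in constant normoxic darkness for 2 days and was killed on the second of them, so no library was taken during exposure or under a light cycle. Lungs were collected at 8 label hours from 1:30 to 22:30, with 3 libraries per hour, each from a different mouse. The comparison was between the 12 libraries of the early hours (1:30, 4:30, 7:30 and 10:30) and the 12 of the late hours (13:30, 16:30, 19:30 and 22:30), which are 24 of the 288 libraries of the study. Of 35904 genes in the deposited table, the 12055 genes that averaged 5 or more TPM (transcripts per 1000000, a length-scaled unit) over these 24 libraries were tested.

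The clock of mammalian cells is a feedback loop. ARNTL (BMAL1) with CLOCK or NPAS2 binds E-boxes and activates the Period, Cryptochrome, Nr1d1 and Dbp genes, and the PER and CRY proteins then block that activation. NR1D1 and the ROR receptors compete at RORE sites, which drive Arntl, Npas2, Cry1 and Nfil3, and DBP, TEF and HLF compete with NFIL3 at D-boxes. Through these sites the loop gives many output genes of a tissue a daily rhythm, and circulating lymphocytes, body temperature and glucocorticoids add daily signals of their own.

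The labels give hours without saying where the subjective day began. In mouse tissues Nr1d1 and Dbp are known to peak in the light phase and Arntl towards the end of the dark phase. In these lungs the fitted 24-hour peaks were at 7.06 h for Nr1d1, 8.82 h for Dbp and 21.95 h for Arntl. On that order the early hours held the peaks of the day-phased clock genes, and the hours are called early and late here, as the labels give them, with no light signal present in either.

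For 4 clock or heat shock genes, the sequence just before the RefSeq start (GRCm38.p6) is shown because the text below turns on when these genes were high and the motif known to act on each is in that stretch. Capitals mark the motif. The strings searched on both strands were CACGTG (E-box), TTATGTAA and TTACGTAA (D-box), TAGGTCA and TGGGTCA (RORE core) and GAANNTTC (heat shock element), none of which contains another. Each line stops where the gene begins in the GENCODE annotation. Bhlhe41 is at chr6:145865559-145865670 (minus strand), Cry1 at chr10:85185065-85185304 (minus), Per3 at chr4:151044666-151044915 (minus) and Hspb1 at chr5:135887669-135887918 (plus).
Bhlhe41: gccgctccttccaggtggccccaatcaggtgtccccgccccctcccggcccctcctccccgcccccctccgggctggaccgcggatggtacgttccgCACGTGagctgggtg
Cry1: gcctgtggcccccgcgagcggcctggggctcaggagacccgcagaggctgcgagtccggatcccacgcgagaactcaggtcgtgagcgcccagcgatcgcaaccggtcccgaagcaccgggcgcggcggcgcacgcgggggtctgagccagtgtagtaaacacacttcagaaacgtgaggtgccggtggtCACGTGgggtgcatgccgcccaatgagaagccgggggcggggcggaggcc
Per3: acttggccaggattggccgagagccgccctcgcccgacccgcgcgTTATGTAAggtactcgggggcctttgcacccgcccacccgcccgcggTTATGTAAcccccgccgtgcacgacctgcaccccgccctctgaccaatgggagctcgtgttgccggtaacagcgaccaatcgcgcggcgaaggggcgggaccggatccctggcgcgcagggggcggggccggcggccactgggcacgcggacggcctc
Hspb1: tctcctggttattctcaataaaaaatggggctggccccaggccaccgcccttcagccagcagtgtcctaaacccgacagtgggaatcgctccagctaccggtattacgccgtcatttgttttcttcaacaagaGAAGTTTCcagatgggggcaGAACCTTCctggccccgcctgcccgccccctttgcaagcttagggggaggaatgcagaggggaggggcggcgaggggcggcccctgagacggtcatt

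The E-box of Bhlhe41 began 153 bases and that of Cry1 60 bases before the RefSeq start. Per3 held the D-box string at 205 and 158 bases, and Hspb1 the heat shock element at 117 and 97 bases before the start. Among 32851 promoters of 250 bases, 6.02% held the E-box, 0.931% a D-box, 5.38% the RORE core and 6.69% the heat shock element. Of the genes that differed between early and late hours (below), 39 of those higher early and 37 of those higher late had a promoter in the table. The E-box was present in 3 of the 39 (7.69%) and in 3 of the 37 (8.11%), against 9.83% of the 9282 matched genes tested. The D-box was found in 0 and 1 of them, the RORE core in 1 and 0, and the heat shock element in 2 and 2. A match of letters is a description of the sequence and not evidence of binding.

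Early and late hours differed in 96 of the 12055 genes (0.796%) at a Benjamini-Hochberg adjusted p of 0.05 in limma, with log2(TPM + 0.5) as the scale of every difference given here. Expression was higher early in 48 genes (0.398%) and higher late in 48 (0.398%). With a change of at least 1.5-fold as well, 17 genes were higher early (0.141%) and 15 late (0.124%). At an unadjusted p of 0.05 there were 1857 genes (15.4%), 599 higher early (4.97%) and 1258 higher late (10.4%). With the replicate number as a block, 358 genes were called (2.97%), 173 higher early (1.44%) and 185 higher late (1.53%), and these included all 96. Leaving out a replicate number takes away 8 of the 24 mice. Without replicate 1 or without replicate 2 no gene was called by limma (917 and 864 genes at an unadjusted p of 0.05), and without replicate 3 there were 23. Of the 96 genes, 96, 95 and 94 kept their direction in these fits, which reuse libraries on which the genes were called. Among the 23 named genes that were called, Nr1d1 and Plekha6 kept the call with each time point left out in turn. Leaving out 1 time point gave between 5 genes (7:30 or 16:30 left out) and 414 (1:30 left out).

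Libraries also differed in ways that the hours did not explain. The genes detected in a library (TPM above 0) numbered from 23622 to 28284, and this number followed the first principal component (55.1% of the variance, r = 0.956 over the 24 libraries, given as a description). It was 25714 ± 1864 early and 25196 ± 1126 late (SD, n = 12 each; 2-sided permutation test with 100000 resamples, p = 0.409). With that number as a term in the model, 583 genes were called, 254 higher early and 329 late, and all 96 were among them. Without the 8 libraries of over 26000 genes, 5 early and 3 late, a choice made with the data in view, no gene was called by limma (1187 at an unadjusted p of 0.05), and 94 of the 96 kept their direction. All 8 were of replicate 1 or 2. Genes detected ran from 23833 to 27557 in replicate 1, 24585 to 28284 in replicate 2 and 23622 to 24771 in replicate 3. The replicate block, the genes-detected term and these exclusions are therefore not independent checks. The library of replicate 2 at 1:30 had the lowest median correlation with the others (r = 0.889 across genes), and without it 93 genes were called, 74 of the 96 among them. Its share in each result was not tested beyond these values. Alveolar type 2 markers, among them Sftpc, summed to between 16482 and 49743 TPM in each library, and cartilage markers to at most 5.31 TPM. Sums of skeletal muscle markers reached 1080 TPM in an early library (median 47.0) and liver markers 895 TPM in a late library (median 34.7).

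The clock genes moved as a wave across the hours, and 4 of the 20 that were tested differed between early and late. Among them, the repressors Nr1d1 and Bhlhe41 were higher early and the repressor Cry1 was higher late. All 4 directions were the same in each replicate number, as in all 48 genes called early, all 48 called late and 5943 of the 12055 tested. The calls were made on these same libraries, so this is a description and no separate test. Of the 20 genes, 16 followed a 24-hour cosine (adjusted p of 0.05, limma F-test), and 12 of those 16 were not called between early and late. Rorb, the last member of the lists, did not reach 5 TPM.

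**Figure D1:**
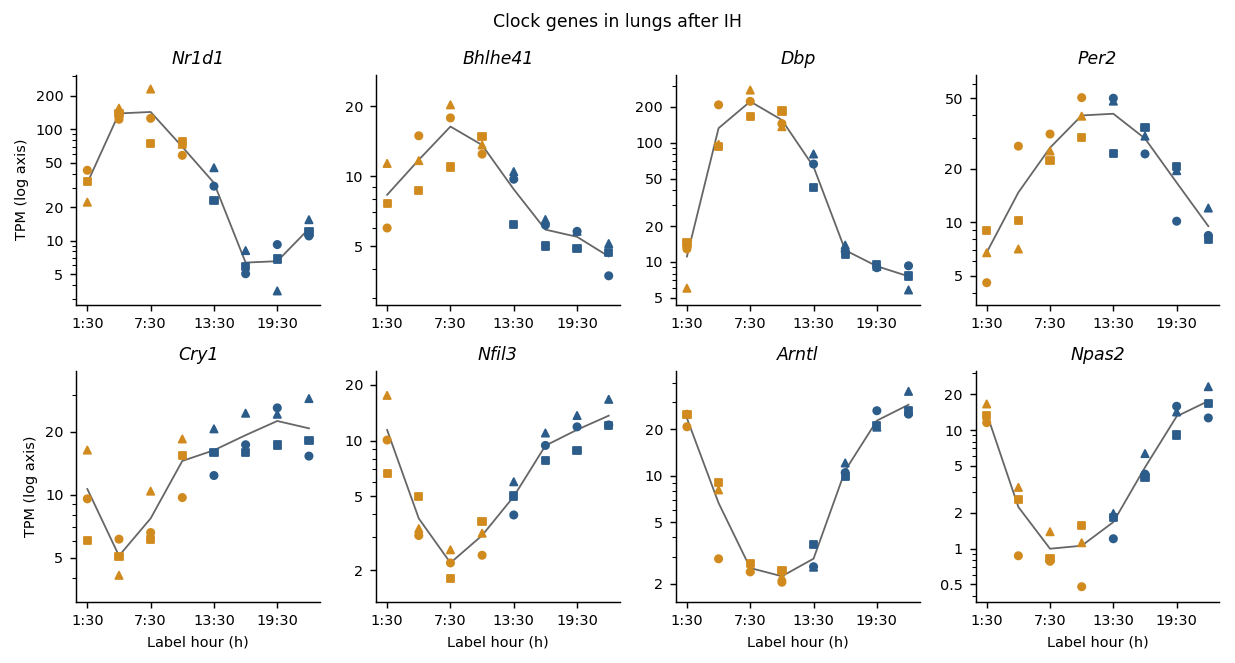
TPM on a log axis against label hour for 8 clock genes in lungs after IH, with orange points for early and blue for late hours, circles, squares and triangles for replicates 1, 2 and 3, and a line through the mean of the 3 libraries at each hour. Nr1d1 falls from a mean of 143 TPM at 7:30 to 6.36 at 16:30, while Arntl and Npas2 are low at 7:30 and 10:30 and high at 22:30 and 1:30, hours that lie on different sides of the comparison.

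Nr1d1 (chr11:98767932-98775333, minus strand, GRCm38), the nuclear receptor also called REV-ERB alpha, showed the largest difference of any called gene. It ranged from 22.2 to 229 TPM early (median 75.6) and from 3.54 to 45.2 TPM late (median 10.1). The ranges overlapped only through the hours next to the boundary of the groups, since the late values were highest at 13:30 (mean 33.0 TPM) and the early values lowest at 1:30 (mean 33.0 TPM). The difference was 2.72 ± 0.409 (log2, SE; adjusted p = 0.00174, limma), or 6.59-fold. It passed with each time point left out in turn, but not without replicate 1 or without replicate 2.

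Bhlhe41 (DEC2), a basic helix-loop-helix repressor of the clock, ranged from 6.00 to 20.3 TPM early (median 12.1) and from 3.73 to 10.48 TPM late (median 5.80). Its difference was 0.90 ± 0.195 (adjusted p = 0.0260, limma), and its mean was highest at 7:30 (16.4 TPM) and lowest at 22:30 (4.52 TPM). Its relative Bhlhe40 did not pass (0.32 ± 0.193, adjusted p = 0.444). Ciart, a repressor of CLOCK and BMAL1, did not pass either (0.48 ± 0.227, adjusted p = 0.308), and neither of these 2 genes passed the cosine test.

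Cry1 ranged from 4.13 to 18.4 TPM early (median 8.09) and from 12.4 to 28.7 TPM late (median 17.7). Early libraries were lower by 1.16 on the log2 scale (-1.16 ± 0.219, adjusted p = 0.0175, limma). Its mean was lowest at 4:30 (5.12 TPM) and rose through the later hours to 22.47 TPM at 19:30. Cry2, its paralogue, was at 36.3 TPM early and 34.2 TPM late (medians), with a difference of 0.04 ± 0.143 (adjusted p = 0.899), although it passed the cosine test with a peak at 11.76 h. So the Cryptochrome genes had their peaks at different hours, 17.4 h for Cry1 and 11.76 h for Cry2, and only the first of these lies within one side of the comparison.

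Dbp, Nfil3 and Nr1d2 had fitted peaks at 8.82 h, 20.6 h and 9.26 h, and none of these 3 genes was called without the block. Dbp, a D-box activator, was at a median of 141 TPM early and 10.54 TPM late and differed by 2.34 ± 0.621, yet its adjusted p was 0.0639 without the block and 0.0464 with it. Its libraries at 1:30 were as low as those of the late hours (mean 11.1 TPM), and those at 13:30 were high (63.0 TPM). Nfil3, the repressor at the same sites, had the opposite pattern, with a median of 3.25 TPM early and 10.2 TPM late (-1.12 ± 0.280, adjusted p = 0.0521, and 0.0333 with the block). Nr1d2, the relative of Nr1d1, differed by 1.49 ± 0.434 (adjusted p = 0.0838). With the block, 6 of the 20 clock genes were called.

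The activators Arntl and Npas2 changed strongly over the day and did not pass the early-late test. Arntl fell from a mean of 23.6 TPM at 1:30 to 2.24 TPM at 10:30 and rose again to 28.8 TPM at 22:30. Its difference was -1.11 ± 0.486 (adjusted p = 0.271), while its cosine had an adjusted p of 1.07e-10 and an amplitude of 1.82 (log2, mean to peak). Npas2 went from 13.8 TPM at 1:30 to 1.00 TPM at 7:30 and 17.6 TPM at 22:30 (difference -1.30 ± 0.513, adjusted p = 0.219). Clock moved less, between 12.6 and 26.4 TPM in its hourly means. Arntl2 passed neither test, with a median of 9.61 TPM early and 8.50 TPM late. Rora, which encodes the nuclear receptor RORα, was at medians of 17.2 TPM early and 17.5 TPM late and passed neither test (-0.06 ± 0.0740, adjusted p = 0.696).

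The Period genes peaked close to the midpoint of the 24 hours. Per3 had its fitted peak at 10.3 h, Per1 at 11.005 h and Per2 at 12.5 h, and all 3 passed the cosine test. Per2 was at a median of 23.7 TPM early and 22.4 TPM late, and the difference of -0.29 ± 0.399 (adjusted p = 0.741) had a 95% interval from -1.11 to 0.53. Per3 was at medians of 43.6 and 19.0 TPM and differed by 0.74 ± 0.396 (adjusted p = 0.383). Per1 differed by 0.44 ± 0.391 (adjusted p = 0.603). The D-box activators Tef and Hlf, with peaks at 10.4 h and 10.3 h, passed the cosine and not the early-late test, and Tef was the most abundant of the 20 clock genes with a median of 340 TPM early and 183 TPM late.

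T and B cell markers were among the genes higher early, with 6 of the 48 on these lists. Of 8 T cell markers tested, 4 were called early, 0 late and 4 did not pass, and with the block 7 were called early. Of 10 B cell markers, 2 were called early, 0 late and 8 did not pass, and with the block 5 were called early. All 18 had a higher fitted mean early. The median difference was 0.56 for T cell and 0.76 for B cell markers, beside -0.06 for all genes tested (0.48, 0.74 and -0.03 with the genes-detected term), and the share of all genes called early was 0.398%. In whole lung RNA, more cells of a type and more RNA per cell cannot be told apart.

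**Figure D2:**
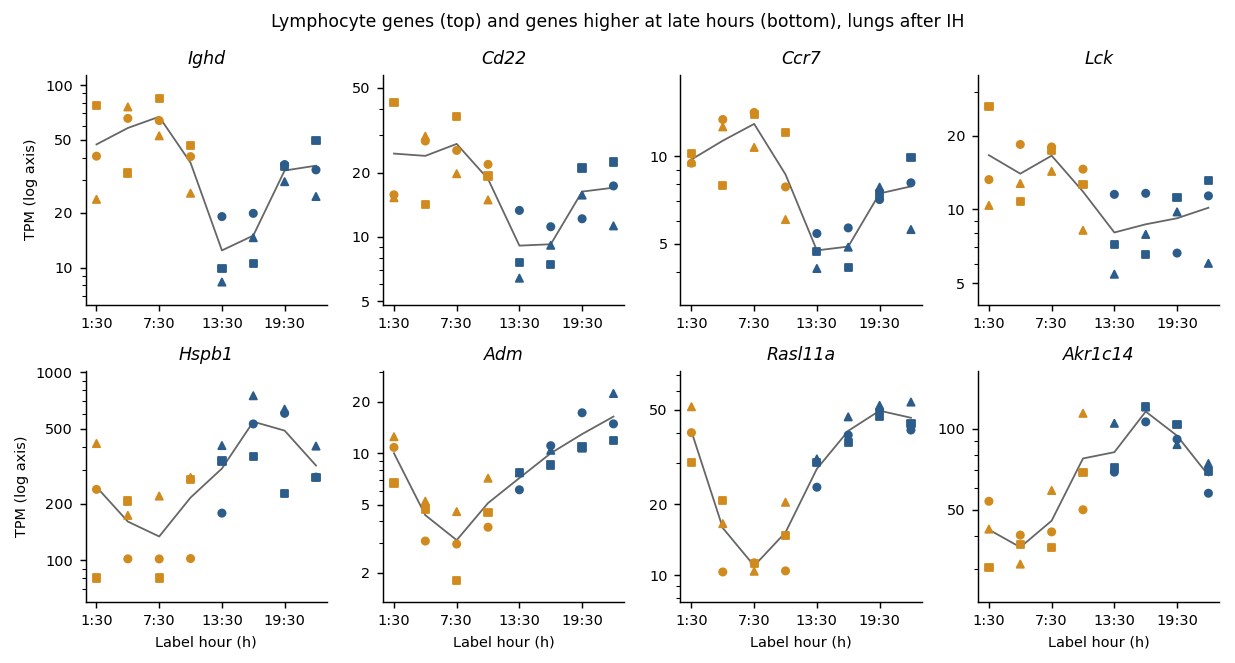
TPM on a log axis against label hour for lymphocyte genes (top) and genes higher late (bottom) in lungs after IH, with orange points for early and blue for late hours, circles, squares and triangles for replicates 1, 2 and 3, and a line through hourly means. The hourly means of the lymphocyte genes are lower at 13:30 than at 10:30 (Ighd 12.4 and 37.5 TPM), and those of Hspb1 are 134 TPM at 7:30 and 545 TPM at 16:30.

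Ighd (chr12:113406604-113416324, minus strand), the constant region of the IgD receptor on naive B cells, ranged from 23.6 to 84.6 TPM early (median 49.6) and from 8.32 to 49.7 TPM late (median 22.2). It was 2.20-fold higher early (1.14 ± 0.260, adjusted p = 0.0332, limma). The lowest hourly means were at 13:30 (12.4 TPM) and 16:30 (14.96 TPM), and the values at 19:30 and 22:30 were back among the early ones. Cd22, an inhibitory receptor of B cells, ranged from 14.2 to 42.8 TPM early (median 20.8) and from 6.41 to 22.45 TPM late (median 11.7), a difference of 0.82 ± 0.187 (adjusted p = 0.0322).

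The other B cell markers did not pass. Blk, a kinase of the B cell receptor, was 0.99 ± 0.251 higher early (adjusted p = 0.0541) and Ms4a1 (CD20) 0.74 ± 0.257 (adjusted p = 0.152). Ighm, the IgM constant region, differed by 0.69 ± 0.352 (adjusted p = 0.351). Fitted peaks of the 10 B cell markers lay between 3.45 h and 4.62 h, and 8 of the 10 passed the cosine test. Pou2af1, a coactivator of immunoglobulin genes that is not on the list, ranged from 5.86 to 13.8 TPM early (median 7.99) and from 1.95 to 9.17 TPM late (median 4.55), a difference of 0.85 ± 0.199 (adjusted p = 0.0370).

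Among T cell markers, Ccr7, the receptor that guides naive T cells into lymph nodes, ranged from 6.06 to 14.1 TPM early (median 10.48) and from 4.12 to 9.93 TPM late (median 5.64). It differed by 0.69 ± 0.141 (adjusted p = 0.0221, limma). Il7r, the receptor of a survival signal of naive T cells, was higher early by 0.66 ± 0.128 (adjusted p = 0.0191), Lck, the kinase of the T cell receptor, by 0.63 ± 0.144 (adjusted p = 0.0322) and Lef1, a T cell transcription factor, by 0.49 ± 0.0950 (adjusted p = 0.0191). The CD3 chains were close behind, with differences of 0.56 ± 0.184 for Cd3d, 0.50 ± 0.134 for Cd3e and 0.55 ± 0.181 for Cd3g, and adjusted p of 0.134, 0.0667 and 0.132. Fitted peaks of the 8 T cell markers lay between 4.88 h and 7.97 h, and 4 of the 8 passed the cosine test. That range lay after the range of the B cell markers, an order that was not tested.

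Summed over its 11 genes, the T cell list was at 94.6 ± 19.0 TPM at 10:30 and at 64.2 ± 10.1 TPM at 13:30 (SD, n = 3 each). The 10 B cell genes summed to 483 ± 193 TPM at 10:30, 138 ± 37.9 TPM at 13:30 and 384 ± 151 TPM at 19:30. In hourly means the sums of either list were lowest at 13:30 and 16:30, and B cell sums spread widely within an hour. Some of these calls rested on 1 library. Ighd, Cd22, Ms4a4b, Pou2af1, Il21r and Lck lost their call without the library of replicate 2 at 1:30, and with TPM as deposited Ighd had an adjusted p of 0.0509, Cd22 of 0.0586 and Lck of 0.0586.

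Among the 10 largest called differences higher early were 4 further genes. Ms4a4b, a membrane protein of T cells, differed by 0.86 ± 0.204 (adjusted p = 0.0430), Ripor2, an inhibitor of RhoA, by 0.76 ± 0.164 (adjusted p = 0.0260) and Il21r, the IL-21 receptor, by 0.68 ± 0.163 (adjusted p = 0.0446). Plekha6, which encodes a pleckstrin homology domain protein, had the smallest adjusted p of the named genes. It ranged from 21.4 to 50.4 TPM early (median 34.8) and from 14.6 to 24.8 TPM late (median 21.6), with a difference of 0.66 ± 0.0908 (adjusted p = 0.00148, limma). Its means were 37.9, 38.04 and 36.5 TPM from 1:30 to 7:30, fell to 25.9 TPM at 10:30 and stayed between 19.3 and 22.6 TPM at the late hours. Like Nr1d1, it passed with each time point left out in turn.

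Several signalling genes of leukocytes were also among the 48, named here after their values had been seen. Ptprc (CD45), present on all leukocytes, differed by 0.41 ± 0.0994 (adjusted p = 0.0470), the kinase Syk by 0.42 ± 0.0877 (adjusted p = 0.0224), the adaptor Blnk by 0.62 ± 0.125 (adjusted p = 0.0201) and the lymphoid regulators Ikzf1 and Satb1 by 0.51 ± 0.111 and 0.62 ± 0.112 (adjusted p = 0.0260 and 0.0122).

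Markers of other blood and lung cells did not pass. None of the 3 NK cell, 10 neutrophil, 15 monocyte and macrophage, 17 endothelial, 12 alveolar type 2 or 8 alveolar type 1 markers tested was called in limma, and none of the 7 MHC class II genes. Their median differences were 0.36 (NK cells), 0.20 (neutrophils), -0.03 (monocytes and macrophages), -0.15 (endothelium), -0.03 (alveolar type 2), -0.25 (alveolar type 1) and 0.07 (MHC class II). Erythroid genes had a median difference of 0.11 with 0 of 5 called, while their summed level spanned 33321 to 111227 TPM early and 25750 to 174324 TPM late. The 13 ciliary and 10 heart muscle markers all had higher fitted means late (medians -0.26 and -0.28) and none was called. These medians moved once the model had a term for genes detected. They were then 0.32 (NK cells), 0.05 (neutrophils), 0.11 (monocytes and macrophages), -0.03 (endothelium), 0.15 (alveolar type 2), -0.09 (alveolar type 1), 0.18 (MHC class II), 0.05 (erythroid), -0.14 (cilia) and -0.15 (heart muscle), beside -0.03 for all genes tested. The part of library quality in these list medians was not tested further.

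**Figure D3:**
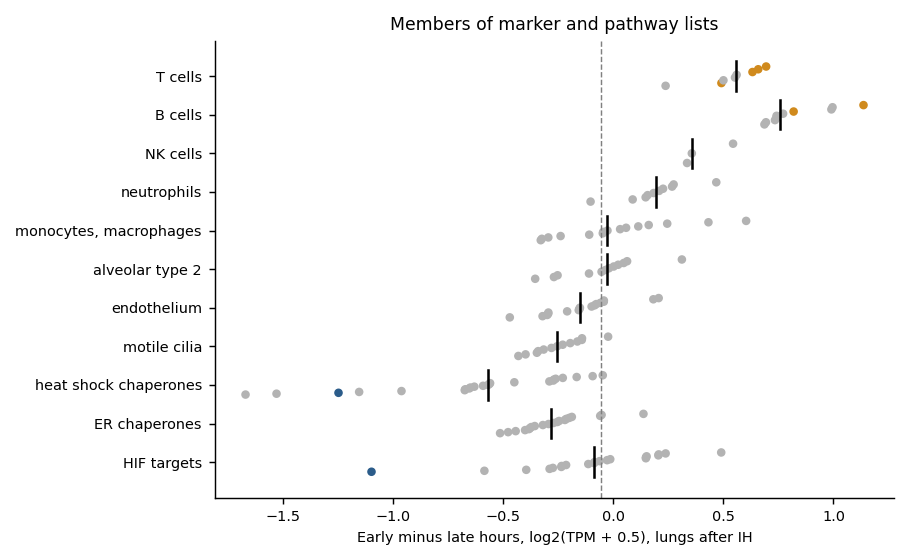
Difference of early minus late hours in lungs after IH (log2(TPM + 0.5)) for each tested member of 11 marker and pathway lists, with the list median as a black bar, the median of all genes tested as a dashed line, and called members in orange (early) and blue (late). All T and B cell markers lie above zero and all heat shock chaperones below it, although most points in either group were not called.

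Among called genes, the largest late difference was in Hspb1 (HSP25), a small heat shock protein that holds unfolded proteins and binds actin. It ranged from 80.4 to 417 TPM early (median 190) and from 178 to 748 TPM late (median 380), 2.38-fold higher late (-1.25 ± 0.304, adjusted p = 0.0482, limma). Its mean was lowest at 7:30 (134 TPM) and highest at 16:30 (545 TPM). The call was close to the threshold and was lost without the library of replicate 2 at 1:30, in which Hspb1 was among the lowest values.

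Hspb1 was the only called member of the 23 cytosolic heat shock chaperones and their regulators. With the block, Hsp90aa1 (HSP90 alpha; -0.96 ± 0.275, adjusted p = 0.0813 without and 0.0353 with the block) and Hsph1 (HSP110; -1.16 ± 0.291, adjusted p = 0.0531 and 0.0276) passed too. All 23 fitted means were higher late, in each of the 3 replicate numbers, with a median difference of -0.57 (-0.44 with the genes-detected term). Of the fitted peaks 22 lay between 15 and 20 h, but only 3 of the 23 genes passed the cosine test. Most of these peak hours thus come from fits that did not pass. Hspa1a and Hspa1b, the inducible HSP70 genes with near-identical sequences, had the largest differences of the list (-1.53 ± 0.510 and -1.67 ± 0.564) but varied from 3.49 to 75.1 TPM and from 3.67 to 108 TPM among the late libraries alone (adjusted p = 0.135 and 0.141). Summed over the list, expression was 2195 ± 472 TPM at 7:30 and 4875 ± 788 TPM at 16:30 (SD, n = 3 each). Hsf1 and Hsf2, the transcription factors of this response, differed by -0.09 ± 0.0583 and -0.05 ± 0.0649 and did not pass.

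The cold-inducible RNA-binding genes Cirbp and Rbm3 had the opposite sign, 0.52 ± 0.194 and 0.49 ± 0.168 (adjusted p = 0.186 and 0.148), and Rbm3 passed the cosine test with a peak at 8.97 h. Of 20 chaperones and sensors of the endoplasmic reticulum, 19 had a higher fitted mean late, with a median of -0.28 (-0.19 with the genes-detected term), and 0 were called.

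Other genes higher late were vascular, metabolic and histone genes. Adm encodes adrenomedullin, a vasodilator peptide and target of hypoxia-inducible factors (HIFs). It ranged from 1.81 to 12.5 TPM early (median 4.65) and from 6.12 to 22.4 TPM late (median 10.8), a difference of -1.10 ± 0.239 (adjusted p = 0.0263, limma), with a steady climb in its hourly means from 3.11 TPM at 7:30 to 16.4 TPM at 22:30. Edn1, the precursor of the vasoconstrictor endothelin-1, named after its values had been seen, ranged from 20.2 to 35.8 TPM early (median 25.6) and from 30.3 to 50.9 TPM late (median 39.7; -0.57 ± 0.124, adjusted p = 0.0260). Its fitted peak at 16.0 h came before that of Adm at 19.9 h, so these 2 vasoactive peptides with opposite actions were both higher late.

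Adm was the only called gene among 21 HIF targets. Vegfa was at a mean of 858 TPM early and 833 TPM late (-0.01 ± 0.106, adjusted p = 0.957), and the list had a median of -0.09, near the -0.06 of all genes, and of 0.03 with the genes-detected term. Pfkfb3, a glycolytic regulator, was higher early by 0.49 ± 0.147 without passing (adjusted p = 0.0966). None of the 7 HIF and prolyl hydroxylase genes tested was called. Epas1 (HIF-2 alpha) was at 804 TPM early and 951 TPM late (-0.32 ± 0.213, adjusted p = 0.483) and Hif1a at 20.7 and 20.5 TPM.

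Akr1c14, an aldo-keto reductase acting on steroids, ranged from 30.4 to 114 TPM early (median 41.9) and from 57.6 to 121 TPM late (median 89.3; -0.93 ± 0.193, adjusted p = 0.0224). Gsta3, a glutathione transferase, had medians of 225 TPM early and 392 TPM late (-0.70 ± 0.146, adjusted p = 0.0234), and Pmvk, a mevalonate pathway kinase, 34.6 and 53.7 TPM (-0.65 ± 0.123, adjusted p = 0.0175); both were named after their values had been seen. The 14 tested targets of NRF2, which controls detoxification, and the 19 genes of cholesterol synthesis and uptake had 0 called members.

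Rasl11a, a RAS-like protein, ranged from 10.3 to 51.6 TPM early (median 15.7) and from 23.6 to 54.0 TPM late (median 42.5; -1.20 ± 0.229, adjusted p = 0.0175). Its early range was wide because the 1:30 libraries (mean 40.6 TPM) were as high as the late ones. Lonrf3, a RING finger protein that cycles in many tissues, had medians of 5.03 TPM early and 9.82 TPM late (-0.91 ± 0.178, adjusted p = 0.0201). Hs3st6, a heparan sulfate sulfotransferase, differed by -0.89 ± 0.189 (adjusted p = 0.0260) and Gdpd2, a glycerophosphodiester phosphodiesterase, by -0.86 ± 0.211 (adjusted p = 0.0490), a call lost without the library of replicate 2 at 1:30. H3c15 and H3c14, histone H3 genes of near-identical sequence whose reads may be split between copies, differed by -0.83 ± 0.184 and -0.83 ± 0.141 (adjusted p = 0.0292 and 0.00707).

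Only 2 genes separated the groups completely in TPM (0.0166% of those tested), and they are named for that. Cst8, a cystatin protease inhibitor, was at 6.505 to 17.3 TPM early and 17.6 to 31.0 TPM late (-0.78 ± 0.115, adjusted p = 0.00174). Tppp, a tubulin-binding protein, was at 9.62 to 13.7 TPM early and 13.7 to 20.6 TPM late (-0.40 ± 0.0969, adjusted p = 0.0458). In both the gap between the groups was narrow.

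**Figure D4:**
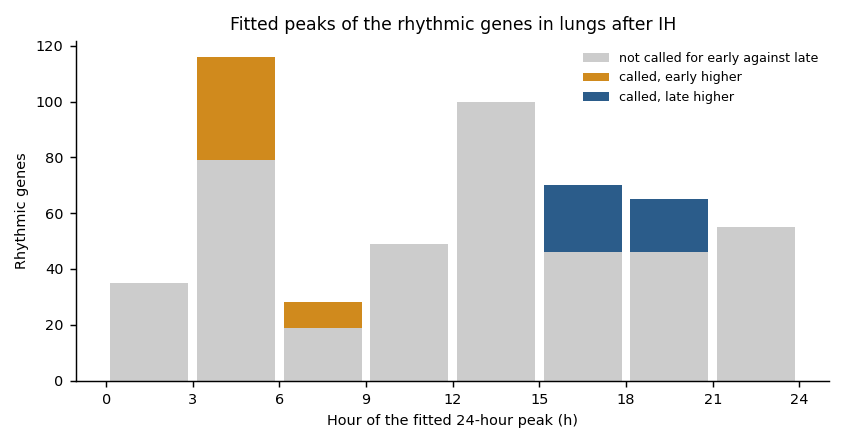
Number of rhythmic genes (24-hour cosine, adjusted p of 0.05) in lungs after IH by the hour of the fitted peak, in bins of 3 hours, with genes also called early in orange and late in blue. Called genes sit in the bins from 3 to 9 h and from 15 to 21 h, while the tallest bar without any called gene, 12 to 15 h, holds 100 genes.

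The comparison of early with late hours saw part of the daily rhythm. A 24-hour cosine passed in 518 of 12055 genes (4.3%), and in 981 with the block (8.14%). Of the 96 called genes, 7 did not pass the cosine test, and of the 518 rhythmic genes 429 were not called between early and late. Genes called early peaked between 3 and 9 h and genes called late between 15 and 21 h, and by construction a gene that peaks near a boundary of the groups has little early-late difference. The most filled bins were 3 to 6 h (116 genes) and 12 to 15 h (100 genes). The latter held Per2, Wee1, a cell cycle kinase controlled by the clock (peak 12.4 h, adjusted p = 1.69e-05), and the glucocorticoid targets Fkbp5 and Tsc22d3 (13.0 and 13.7 h, adjusted p = 0.000582 and 0.000677). Eln, which encodes elastin, and Adra1a, an adrenergic receptor, peaked at 21.6 h (adjusted p = 5.99e-06 and 9.37e-05). These lie in the bin from 21 to 24 h, which held 55 genes, 0 of them called between early and late.

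The 24 normoxia lungs give the same contrast in separate mice. All 48 genes called early after IH were also higher early in normoxia, and all 48 called late were higher late, whereas 67.25% of all tested genes had the same sign in both. The median differences of the early genes were 0.49 after IH and 0.16 in normoxia, and of the late genes -0.44 and -0.23. The genes were chosen on their difference after IH, so the sizes in the 2 treatments cannot be set against each other through these medians. At an unadjusted p of 0.05 in normoxia, 14 of the 48 early and 33 of the 48 late genes passed with the same sign. The same test in normoxia called 6 genes (0.0498%), with 1066 at an unadjusted p of 0.05 (8.84%), and the cosine called 1227 (10.2%). After IH the cosine called 518 genes, but 1652 with the genes-detected term, which was not fitted to the normoxia lungs alone. The numbers of rhythmic genes in the 2 treatments therefore cannot be set against each other.

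**Figure D5:**
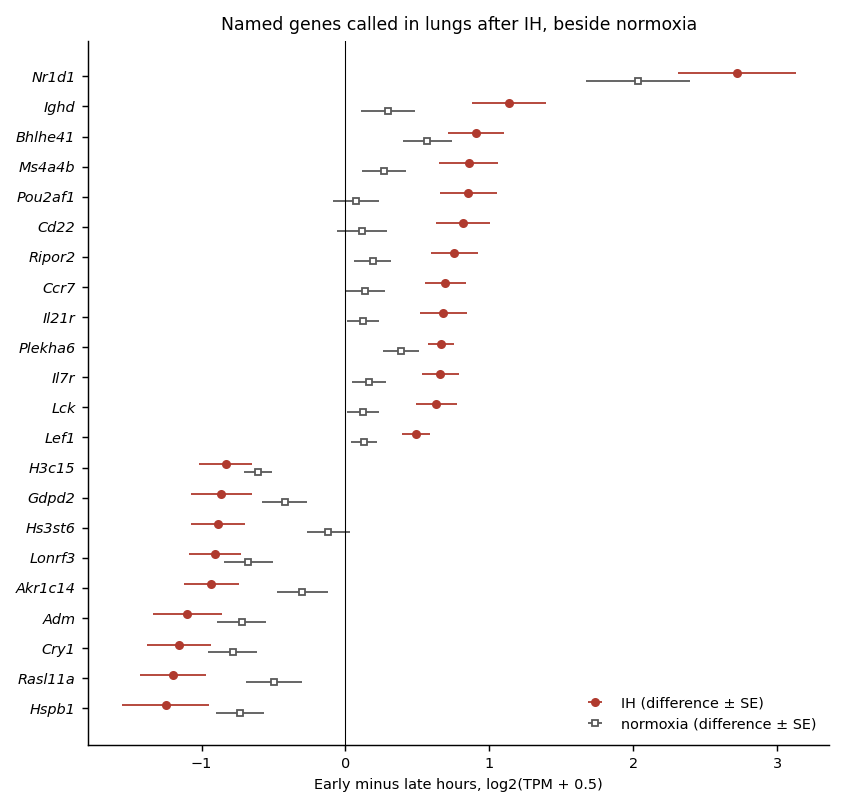
Difference of early minus late hours (log2(TPM + 0.5), point and SE) for 22 genes called after IH, with red circles for the 24 IH and open squares for the 24 normoxia lungs. Every pair of points has the same sign, as for Ighd (1.14 and 0.29) and H3c15 (-0.83 and -0.61), and the genes were chosen on the IH values.

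The difference between treatments was tested as an interaction over all 48 lungs, and limma called 0 genes (352 at an unadjusted p of 0.05, 2.92%). The treatments also differed in genes detected, with 21746 to 25400 in the normoxia libraries and 23622 to 28284 after IH. With that number as a term, the interaction called 0 genes too (797 at an unadjusted p of 0.05). The share of library quality in the values of the 2 treatments was not tested further. Nr1d1 was at 76.5 ± 37.1 TPM early and 21.2 ± 14.8 TPM late in normoxia (SD, n = 12 each), a difference of 2.03 ± 0.359, and the interaction was 0.70 with a 95% interval from -0.42 to 1.81. Cry1 differed by -0.78 ± 0.172 in normoxia, with an interval of the interaction from -0.90 to 0.21. Of the 20 clock genes, 19 had the same sign in both sets of lungs and 0 had an interaction at an unadjusted p of 0.05.

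None of the lymphocyte genes had a called interaction. At an unadjusted p of 0.05 in limma, 6 of the 8 T cell and 7 of the 10 B cell markers had one. Over all 12055 genes tested, 352 did (2.92%). Markers of a list share the same libraries, so these counts are not separate tests. Ighd, Cd22 and Ccr7 were among the largest called early differences after IH, so a smaller value in normoxia can follow from that choice. Ighd was at 43.1 ± 13.7 TPM early and 36.1 ± 14.5 TPM late (0.29 ± 0.188), and the interaction was 0.86 with a 95% interval from 0.19 to 1.53 (unadjusted p = 0.0130, adjusted p = 0.997, limma). Cd22 was at 13.49 ± 5.44 and 12.1 ± 3.82 TPM (0.11 ± 0.173; interaction 0.72, interval 0.19 to 1.25, adjusted p = 0.997). Ccr7 was at 11.3 ± 2.80 and 10.2 ± 2.81 TPM (0.14 ± 0.137; interaction 0.57, interval 0.17 to 0.97, adjusted p = 0.997). The list medians in normoxia were 0.11 for T cell and 0.15 for B cell markers, beside 0.56 and 0.76 after IH. These medians cover all tested members and not only the called ones, and why they differ was not tested. A larger daily difference of lymphocyte genes after IH is therefore not shown by a test across all genes, and the intervals of these single genes are unadjusted.

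Among the late genes, Hspb1 was at 226 ± 47.1 TPM early and 400 ± 178 TPM late in normoxia (-0.74 ± 0.166), with an interaction of -0.49 (interval -1.18 to 0.19). Adm differed by -0.72 ± 0.169 there and Lonrf3 by -0.67 ± 0.170. Hs3st6 differed by -0.12 ± 0.151, with an interaction of -0.74 (interval -1.22 to -0.26, unadjusted p = 0.00346, adjusted p = 0.997). Heat shock chaperones as a list had a median of -0.36 in normoxia, where 22 of the 23 were higher late, and 0 of the 23 had an interaction at an unadjusted p of 0.05.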

How the data were processed

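RNA was extracted with Trizol, poly(A)-selected and made into strand-specific libraries for sequencing on a NovaSeq. Per the labels and the methods, the authors used bcl2fastq, FastQC 0.11.3 and kallisto with Ensembl mouse transcripts (mm10), and the deposited values are gene-level TPM, which sum to between 991994 and 996574 per library here. Reads cannot be recovered from TPM, so library depth and counting error are unknown. DESeq2 was part of the authors' processing but was not run here.

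Here TPM was divided by each library's median of ratios (0.799 to 1.31) and put on a log2 scale after adding 0.5. TPM levels are printed as deposited. Genes averaging 5 TPM or more over the 24 libraries were fitted with limma 3.58.1 in R 4.3.3 (intensity trend, early against late as the only term), and p-values were adjusted over 12055 genes. The cosine (24 h) and the interaction with normoxia used the same scale. Other values used Python 3.11.15, scipy 1.17.1, pandas 2.3.3 and matplotlib 3.10.9. Tests were 2-sided. On simulated data, 94.5% of 200 genes with a log2 difference of 1 and 64% with 0.5 were recovered for early against late, with 13 and 8 false calls. The simulated noise was drawn for each gene on its own, from its spread within time points. Changes between hours of a group and differences shared by the genes of a library were left out. These rates therefore do not give the power or the false calls in the real libraries.

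Deviations from the time point means, averaged per replicate number, correlated between early and late hours (r = 0.618, 0.543 and 0.853 for numbers 1 to 3), so the block is given beside results, on the data alone. Number 1 early correlated more with number 2 late (r = 0.779) than with its own number, and number 2 early with number 1 late at r = 0.4495. Of 84 pairs of single libraries with the same number, 56 had r above 0.1 (lowest -0.662), against 68 of 168 pairs with other numbers. The labels do not say what the number marks. Beyond the number, libraries are separate mice.

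The genes named are 20 tested clock genes, the 10 largest called differences in each direction (gene model names left out) and up to 4 called members of each other list. Members, lists and hours were chosen with earlier results of these data known. Gene positions come from GENCODE mouse release M21 (GRCm38). Alternatives were other pseudocounts, filters, scaling, blocks and left-out libraries. Results of some genes are not reported here.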

Additional observations from a re-analysis of the deposited data

How the results depend on the processing

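Early-late calls depended on the settings, and the cause was not tested. Genes called (higher early and higher late) were 161 with a mean TPM of at least 1 (101 early), 59 with at least 10 (29 and 30), 60 with no filter (24 late), 52 with TPM as deposited (27 and 25), 358 with the replicate block (173 and 185), 152 with a mean per time point (80 early), 583 with a term for genes detected (254 and 329) and 625 with the block and that term together (264 and 361). No gene was called by limma in replicate 1, 2 or 3 alone (0 of either direction; 1007, 757 and 845 genes at an unadjusted p of 0.05) or without the 8 libraries of over 26000 genes (0 and 0). Leaving out a replicate number gave 0 to 23 genes (0 to 9 early, 0 to 14 late), and a time point 5 to 414 (3 to 128 early, 2 to 286 late).

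The cosine called 797 genes with TPM as deposited, 981 with the replicate block, 1652 with the genes-detected term, 1897 with both, 568 without the library of replicate 2 at 1:30, 74 to 207 without a replicate number and 203 to 487 without a time point. The interaction called 0 genes under every setting run. The block joined with the genes-detected term, and leaving out the 8 libraries or that of replicate 2 at 1:30, were chosen after seeing the data.

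Of the 96 called genes, 94 to 96 kept their direction with a replicate number or a time point left out, in 1 replicate number alone and without the 8 libraries. All these fits reuse libraries on which the genes were called. Among the 39 named genes, the directions that turned were those of Per1, Per2, Cry2, Rora and Arntl2, which were not called. With a time point left out, Per2 ranged from -0.70 to 0.18 (above 0 without 1:30 and, at 0.054, without 13:30), Cry2 from -0.12 to 0.22 (below 0 without 10:30 and, at -0.069, without 22:30) and Rora from -0.13 to 0.017 (above 0 without 1:30). Per2 was 0.16 in replicate 1 alone. Cry2 was -0.10 in replicate 3 alone. Per1 was -0.41 in replicate 3 alone, and Arntl2 was -0.17 in replicate 3 alone and -0.083 without the 8 libraries. Of 1029 values of single genes under alternatives, 727 kept their direction and side of the threshold, 266 lost the call and 26 gained one. The 1029 include named genes that were not called and had no call to lose, so all 266 losses fell on the 23 called genes. Nr1d1 lost its call in 6 of 27 settings and Hspb1 in 17 of 27. Of the 23 named called genes, 2 kept the call with each time point left out. Depth is unknown, so low TPM limits these values by an unknown amount.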
